A study of Danio rerio with 24 samples.

Results

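The comparison described here is that of Meevs embryos with wild type embryos that received no ultraviolet B (UVB), at 29 h post fertilisation (hpf). It rests on 6 of the 24 RNA-seq libraries of a zebrafish (Danio rerio) study, all of whole embryos. Meevs names embryos of mothers that carried a mutation in eevs. Neither the lesion nor the wild type strain is named in the labels, and the alleles that the embryos themselves carried are not stated. The 3 Meevs and 3 wild type libraries were chosen by their labelled genotype, mock treatment and stage, and the comparison runs over all 22340 genes tested of 23219 in the count table. In the mock groups embryos were kept in the dark, were mock exposed at 24 hpf and were collected 5 h later. The other 18 libraries, 3 per group, are the same genotypes after 450 J of UVB at 29 hpf, and mock and UVB embryos of both genotypes at 48 hpf. They enter the fit through a common estimate of the spread, and they show where the mock difference at 29 hpf departs from the genotype difference elsewhere. With only the 6 libraries in the fit, 4400 genes were called higher in Meevs and 4622 lower, against 5480 and 5185 with all 24. All wild type libraries carry one series number in their labels and all Meevs libraries another, so genotype, parents and library series cannot be told apart in any result below.

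Fish make gadusol, a small compound that absorbs UVB, from a sugar phosphate of the pentose phosphate pathway. The enzyme encoded by eevs carries out the first step and the product of the neighbouring gene zgc:113054 completes the synthesis. Eggs are supplied with maternal products, so a maternal mutant label concerns what the mother put into the egg. At this stage the zebrafish embryo has a beating heart, contracting trunk muscle, a forming lens, a layered skin and the first pigment cells.

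Library totals lay between 22811266 and 29830198 counts, within the range of all 24 libraries (22395870 to 44691629). On principal components of these 6 libraries the first component held 59.7% of the variance and separated the genotypes, with wild type at -49.4, -34.2 and -45.5 and Meevs at 27.4, 34.6 and 67.0. Meevs replicate 3 thus stood furthest from wild type and apart from the other Meevs libraries, and results are also given without it. Nothing in the labels tells whether the replicates are separate clutches. The p-values therefore measure the spread between libraries of the same group, estimated in common over all 24 libraries, and that spread may be technical. Genes that mark tissues were read to unequal extents. In all 6 libraries 7 of 35 photoreceptor genes had at least 1 CPM (counts per 1000000 counts of the library). The same held for 30 of 50 lens crystallins and for 55 of 55 keratinocyte and periderm genes. In whole embryos, fewer cells of a type and less RNA per cell cannot be told apart.

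The targeted gene gave no check of the labels at this stage. eevs (ENSDARG00000087873, GRCz11 chromosome 6, 43438074 to 43449013, minus strand) stood at 0.256, 0.205 and 0.188 CPM in wild type replicates 1 to 3 and at 0.302, 0.23 and 0.1 CPM in Meevs. The groups overlapped, and the log2 difference was -0.02 ± 0.52 (SE, edgeR adjusted p = 0.982). Its sign rested on single libraries, since the value was 0.29 without Meevs replicate 3. The second gene of gadusol synthesis, zgc:113054 (chromosome 6, 43450221 to 43474757, plus strand), stood at 17.7, 16.6 and 15.6 CPM in wild type and at 21.6, 22.5 and 23.9 CPM in Meevs, a rise of 0.44 ± 0.10 (edgeR adjusted p = 0.000629). Among the next genes on the chromosome, foxp1b, a forkhead transcription factor, fell (-0.82 ± 0.13, edgeR adjusted p = 1.03e-05). uba3, from the list of gadusol genes and locus neighbours, and trnt1 (0.21 in log2) were called higher. mitfa, the master regulator of melanophores, differed by 0.21 ± 0.13, frmd4ba by 0.05 ± 0.06 and arl6ip5a by 0.28 ± 0.14, and none of these passed (edgeR adjusted p = 0.178, 0.546 and 0.0982).

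Around eevs the share of called genes lay on either side of that over all genes, depending on the window. Within 1 Mb of it 12 of 28 tested genes were called (42.9%), within 2 Mb 52% of 50, within 5 Mb 53.8% of 197 and within 10 Mb 53.2% of 340. On the whole of chromosome 6 the share was 51.7%, against 47.7% of all genes. At least 2-fold changes made up 3.57% of the genes within 1 Mb and 7.36% of chromosome 6, against 7.07% of all genes. The far part of chromosome 4, beyond 28 Mb, was the other way round: only 32.6% of its 691 genes were called, but 17.2% were called with at least a 2-fold change. These genes held 0.249% to 0.268% of the counts of each library. Across the table, 16.5% of genes below 0 log2 CPM were called, and 14% with at least a 2-fold change. From 0 to 2 log2 CPM these shares were 36.6% and 12.1%. The part of expression level in the chromosome 4 shares was not tested.

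**Figure D1:**
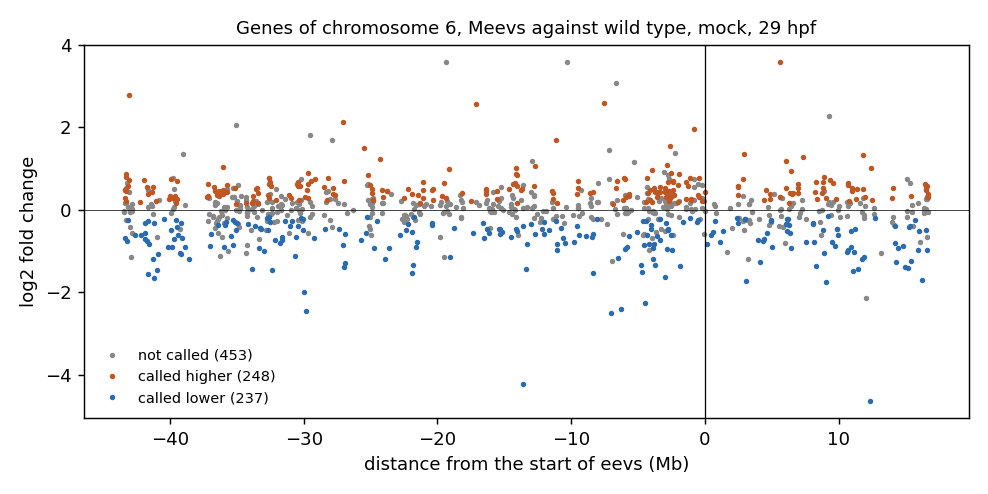
Log2 fold change of Meevs against wild type in mock embryos at 29 hpf (vertical axis) for each tested gene of chromosome 6, by distance from the start of eevs in Mb (horizontal axis), with genes called higher in orange, called lower in blue and not called in grey. The 485 called genes lie along the whole chromosome, with 12 of them within 1 Mb of eevs.

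Meevs and wild type embryos differed in 10665 genes (47.7% of those tested) at an edgeR adjusted p under 0.05, with 5480 genes higher in Meevs (24.5%) and 5185 lower (23.2%). Most differences were small, with a median size of 0.525 on the log2 scale among called genes. Changes of at least 2-fold were more often downward, with 471 genes higher (2.11%) and 1109 lower (4.96%). Tested against a change of 1.5-fold rather than of 0 (glmTreat in edgeR), 322 genes rose (1.44%) and 908 fell (4.06%). Without Meevs replicate 3, 4424 genes were higher and 4230 lower, and 78.9% of the original calls were made again. The libraries of the genotypes did not overlap for 11830 genes (53%).

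Genes that stood lower in Meevs included components of the microRNA machinery. ago1, an Argonaute protein that carries small RNAs to their targets (chromosome 16, 51084472 to 51151993), was read at 31.1, 23.4 and 31.5 CPM in wild type and at 4.7, 5.06 and 2.66 CPM in Meevs. The lowest wild type library was over 4 times the highest Meevs library, and the log2 difference was -2.78 ± 0.18 (edgeR adjusted p = 5.44e-11). ago3a, its neighbour on the chromosome, fell from 5.64, 4.41 and 6.24 CPM to 1.51, 1.56 and 0.602 CPM (-2.12 ± 0.27, edgeR adjusted p = 6.37e-07). The other Argonaute genes of the list fell too, ago2 by 1.96, ago3b by 0.89 and ago4 by 0.89, so all 5 of them were called. dicer1, which cuts microRNA precursors, stood at 94.4, 74.7 and 90.2 CPM in wild type and at 42.9, 51.8 and 40.1 CPM in Meevs (-0.94 ± 0.09, edgeR adjusted p = 1.12e-08). dgcr8, which with Drosha trims primary microRNA transcripts in the nucleus, differed by -0.24 ± 0.06 and was called. drosha (-0.06 ± 0.08) and tarbp2, a Dicer partner (0.15 ± 0.07), did not pass.

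lin28b and lin28a encode RNA-binding proteins that block maturation of the let-7 microRNA. lin28b was read at 6.15, 4.71 and 6.58 CPM in wild type and at 1.64, 1.15 and 0.803 CPM in Meevs (-2.26 ± 0.21, edgeR adjusted p = 9.99e-09). lin28a fell from 112, 106 and 116 CPM to 56.8, 66.3 and 72.5 CPM (-0.77 ± 0.09, edgeR adjusted p = 3e-07). In the list of germ line and small RNA genes as a whole, 12 of 34 members fell (35.3%) and 0 rose. Over all genes 23.2% fell and 24.5% rose. The median log2 difference of the list was -0.20 against 0.03 over all genes. Of the other members ca15b fell (-1.77 ± 0.49), whereas the germ cell genes ddx4 (-0.45 ± 0.20), piwil1 (0.22 ± 0.24) and nanos3 (-0.26 ± 0.29) did not pass. Without Meevs replicate 3 the counts were again 12 lower and 0 higher.

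In the list of histones and chromatin 12 of 41 members rose (29.3%) and 9 fell (22%), near the shares over all genes of 24.5% and 23.2%. tet1, which oxidises methylated cytosine, fell and was at 9.93, 7.52 and 10 CPM in wild type and at 3.97, 3.03 and 2.26 CPM in Meevs (-1.56 ± 0.18, edgeR adjusted p = 1.71e-07). tet2 fell by 0.69 and tet3 by 0.63. Of the de novo methyltransferases dnmt3aa fell by 1.48, dnmt3ab by 0.71 and dnmt3ba by 0.48, while the maintenance enzyme dnmt1 (-0.04 ± 0.08) and dnmt3bb.1, dnmt3bb.2 and dnmt3bb.3 did not pass. Against the median of genes of their span tet1 stood at -1.36, tet2 at -0.49 and tet3 at -0.44. jarid2b and jarid2a, which recruit Polycomb complexes, fell by 1.79 and 0.85. Among the members that rose were the histone genes h2az2b, by 0.63, and h3f3d, by 0.44.

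Genes of several other kinds fell too. prtgb, a protogenin-like receptor of the immunoglobulin family, stood at 167, 139 and 169 CPM in wild type and at 43.0, 31.9 and 27.6 CPM in Meevs (-2.21 ± 0.15, edgeR adjusted p = 6.54e-11). fermt2, which links integrins to the cytoskeleton, was at 29.4, 22.1 and 24.7 CPM against 7.29, 7.26 and 3.96 CPM (-2.03 ± 0.15, edgeR adjusted p = 3.74e-10). The groups lay apart in both, which was a condition for naming the largest changes and held for 53% of all genes. fam168a (-2.48 ± 0.17), mxra5b (-2.10 ± 0.30), the mechanosensitive channel gene PIEZO2 (-2.02 ± 0.31), HECTD4 (-2.0 ± 0.27) and the atypical cadherin fat3a (-1.97 ± 0.18) also fell. ctbs, a lysosomal chitobiase, fell from 11.5, 3.66 and 7.37 CPM to 1.08, 0.965 and 0.853 CPM (-2.95 ± 0.39), with the wild type libraries more than 3-fold apart among themselves. Each of these 8 genes was called again in every fit that left out 1 of the 6 libraries, as were 69.7% of all called genes. Those fits share libraries with the fit that chose the genes and are no independent check.

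Nuclear receptors for vitamin D were lower in Meevs. vdrb was read at 7.17, 4.48 and 5.34 CPM in wild type and at 1.51, 1.19 and 0.803 CPM in Meevs (-2.26 ± 0.24, edgeR adjusted p = 4.74e-08), and vdra at 2.15, 1.71 and 2.11 CPM against 0.69, 0.689 and 0.351 CPM (-1.76 ± 0.26, edgeR adjusted p = 4.87e-06). Of the enzymes, cyp24a1, which breaks down active vitamin D, rose by 1.01 ± 0.25, and cyp27b1, which makes it, fell (-0.86 ± 0.30). The list of vitamin D and retinoid metabolism held 10 members called higher (40%) and 8 lower (32%) of 25. Over all genes the shares were 24.5% and 23.2%. The retinoic acid-degrading cyp26a1 (0.55 ± 0.09) and the retinol receptor stra6 (0.52 ± 0.07) were among those that rose. The retinoic acid receptor genes rargb, rarab and raraa, and also crabp2b and cyp26c1, were among those that fell.

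**Figure D2:**
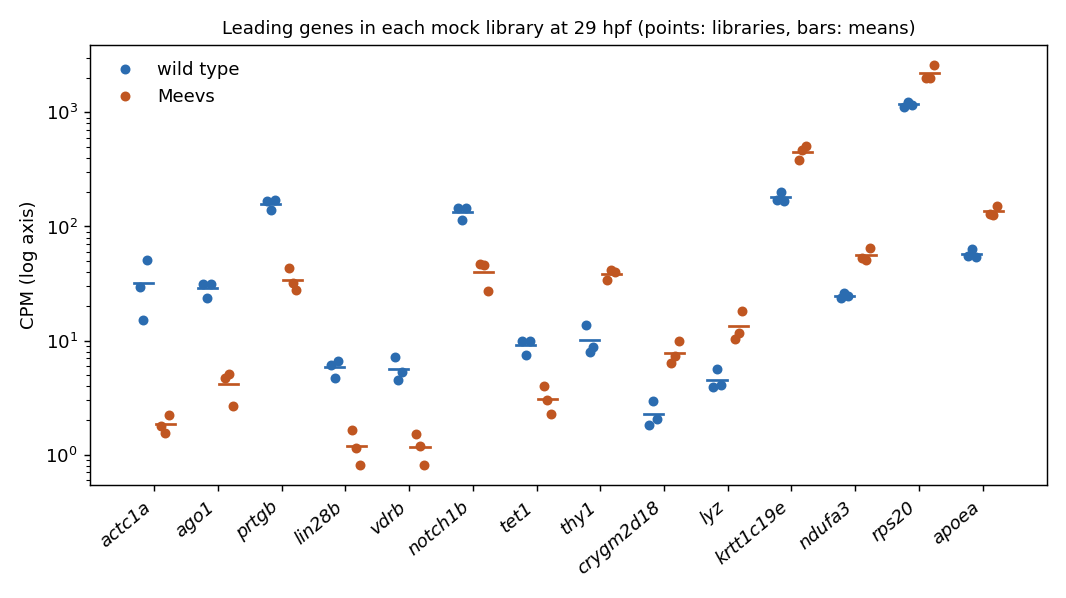
Level of 14 genes in each mock library at 29 hpf in CPM on a log axis, with wild type in blue, Meevs in orange, a point for each library and a bar for the mean of 3. The groups do not overlap for any of the 14, which was a condition for choosing some of them and held for 53% of all genes. In ago1, tet1, lin28b, vdrb and notch1b the lowest of the Meevs libraries is replicate 3. For actc1a a single identifier of that symbol is shown, and the sum over both of its identifiers stood higher in Meevs.

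In the list of neural progenitors and proneural genes 17 of 46 members rose (37%) and 7 fell (15.2%), against 24.5% and 23.2% of all genes. The list's median was 0.10, but -0.11 when each gene was set against the median of genes of its span. The counts were 11 and 9 without Meevs replicate 3, and without wild type replicate 1 the count of fallen members was 11. notch1b, a receptor that holds neural progenitors undifferentiated, stood at 145, 113 and 146 CPM in wild type and at 46.5, 46.3 and 27.4 CPM in Meevs (-1.75 ± 0.16, edgeR adjusted p = 5.6e-09). notch3 fell by 0.78 and pax6b, a transcription factor of eye and brain, by 0.77. The members that rose included the Notch targets her4.2, her6 and her12. elavl3, a marker of newborn neurons, fell from 428, 445 and 474 CPM to 261, 304 and 266 CPM (-0.70 ± 0.08, edgeR adjusted p = 1.15e-07), whereas the neurofilament gene neflb rose by 1.01 and gap43, a gene of growing axons, by 0.54. Among markers of differentiating neurons 20 of 53 rose (37.7%) and 11 fell (20.8%), and 13 rose without wild type replicate 1.

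The circadian clock list was the one with the lowest median, -0.41. Of 37 tested members 22 fell (59.5%) and 2 rose (5.41%), against 23.2% and 24.5% of all genes. per3, a Period repressor of the clock, stood at 30.8, 29.4 and 34.4 CPM in wild type and at 15.7, 17 and 14.6 CPM in Meevs (-1.0 ± 0.11, edgeR adjusted p = 1.15e-07). per1b fell by 0.83, the Bmal genes arntl2 and arntl1b by 0.81 and 0.72, and clocka and rorb by 1.08 and 1.23. The light-induced per2 did not pass (-0.17 ± 0.11), and cry4 and bhlhe40 were the 2 genes that rose. Without Meevs replicate 3 the count of fallen members was 13 and the median -0.31, so this library carried part of the list's calls. All embryos were in the dark and the labels give no clock time of collection.

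Genes of the cytosolic ribosome rose together. Of 88 tested ribosomal protein genes 87 were called higher and 0 lower, against 24.5% called higher of all genes, and their median log2 difference was 0.69. Their summed level was 84809, 93866 and 89150 CPM in wild type and 133430, 128545 and 161856 CPM in Meevs. The highest wild type library thus stood below the lowest Meevs library, and Meevs replicate 3 was above replicates 1 and 2. rps20, a protein of the small subunit, was read at 1123, 1242 and 1155 CPM in wild type and at 1999, 2011 and 2621 CPM in Meevs (0.91 ± 0.10, edgeR adjusted p = 4.34e-08), and rpl36, of the large subunit, at 423, 453 and 426 CPM against 775, 822 and 1053 CPM (1.03 ± 0.10). The gene not called was the less abundant of the 2 identifiers that carry the symbol rpl37 (0.04 ± 0.13). Without Meevs replicate 3 the same number of 87 genes was called and the median was 0.58.

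Nuclear genes of oxidative phosphorylation, the mitochondrial chain that makes ATP, moved likewise. Of 87 tested 80 rose (92%) and 0 fell, against 24.5% and 23.2% of all genes. The median was 0.72 (0.63 without Meevs replicate 3, again 80 and 0). ndufa3, a subunit of complex I, stood at 23.5, 26.3 and 24.4 CPM in wild type and at 52.6, 50.4 and 65 CPM in Meevs (1.18 ± 0.10, edgeR adjusted p = 1.04e-09). ndufa12 rose by 1.13, ndufa11 by 0.99 and ndufs7 by 0.96. The 13 genes encoded by mitochondrial DNA itself did not follow: 4 rose (mt-co2, mt-nd3, mt-co3 and mt-nd1) and 2 fell (mt-nd5 and mt-nd4l), with a median of 0.09. mt-co2 differed by 0.52 ± 0.08 and mt-nd5 by -0.44 ± 0.08.

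Antioxidant enzymes stood higher in Meevs in most cases. Among 37 genes of the Nrf2 antioxidant list 21 rose (56.8%) and 5 fell (13.5%), against 24.5% and 23.2% of all genes. Their median was 0.38. sod1, the cytosolic superoxide dismutase, was at 15.8, 18.9 and 16 CPM in wild type and at 28.5, 30 and 37.2 CPM in Meevs (0.91 ± 0.10, edgeR adjusted p = 1.13e-07). The peroxiredoxins prdx2 (0.75 ± 0.07) and prdx4 (0.67 ± 0.07) and the lipid peroxide-reducing gpx4b (0.79 ± 0.08) rose, as did nqo1 (0.43 ± 0.10), a gene induced through Nrf2. The cystine importer slc7a11 fell (-0.75 ± 0.22), and hmox1a (-0.06 ± 0.19) and gclc (0.08 ± 0.06), further Nrf2 targets, did not pass. In the pentose phosphate pathway, which supplies both NADPH and the precursor of gadusol, 4 of 14 genes rose and 2 fell. The share that rose, 28.6%, was near the 24.5% over all genes. pgd, an NADPH-forming enzyme of the pathway, rose by 0.23 ± 0.07.

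Crystallins, the proteins that fill the lens, had the highest median of the 46 lists, 1.12 (1.04 without Meevs replicate 3). Of 50 tested lens genes 34 rose (68%) and 0 fell, against 24.5% and 23.2% of all genes. crygm2d18, a fish gamma M crystallin, was at 1.83, 2.97 and 2.07 CPM in wild type and at 6.3, 7.31 and 9.88 CPM in Meevs (1.77 ± 0.29, edgeR adjusted p = 2.12e-05). The beta crystallin cryba2b stood at 25.9, 35.3 and 29.7 CPM against 53.5, 67.4 and 76.3 CPM (1.12 ± 0.16, edgeR adjusted p = 2.71e-06). The summed level of the list was 612, 815 and 694 CPM in wild type and 1220.0, 1358 and 1563 CPM in Meevs. Many gamma M crystallins lie in clusters of close copies between which the counting could split reads, so single members are uncertain. cryaa, the lens alpha crystallin, did not pass (0.32 ± 0.63).

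Skin genes were higher as well. In the list of keratinocytes and periderm 32 of 55 rose (58.2%) and 4 fell (7.27%), against 24.5% and 23.2% of all genes. The counts were 28 and 3 without Meevs replicate 3, and the median with all libraries was 0.37. krtt1c19e, a keratin of basal keratinocytes, stood at 171, 202 and 168 CPM in wild type and at 382, 466 and 505 CPM in Meevs (1.32 ± 0.13, edgeR adjusted p = 1.38e-08). aep1, an aerolysin-like protein of the outer skin, was at 141, 166 and 150 CPM against 321, 386 and 370 CPM (1.23 ± 0.12), and agr2, needed for mucous cells, at 28.6, 34.8 and 31.5 CPM against 56.9, 64.4 and 73.5 CPM (1.04 ± 0.09). The adhesion genes itgb4, dspb, evpla and perp were the 4 that fell. tp63, the transcription factor of basal epidermis, did not pass (-0.05 in log2).

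Skeletal muscle genes had a median of 0.48, with 40 of 81 called higher (49.4%) and 8 lower (9.88%). Over all genes the shares were 24.5% and 23.2%. tnnc2, the calcium sensor of fast muscle, was read at 1098, 1347 and 1196 CPM in wild type and at 2050, 2102 and 2418 CPM in Meevs (0.85 ± 0.11, edgeR adjusted p = 5.38e-07). tpma, tropomyosin, rose by 0.93 and the creatine kinase ckma by 0.96. myod1, which commits cells to muscle, moved the other way, from 21.4, 19.8 and 16.2 CPM to 6.47, 7.9 and 7.08 CPM (-1.42 ± 0.13, edgeR adjusted p = 7.15e-09), and mef2cb and mef2ca, factors of muscle differentiation, fell by 0.60 and 0.59. In heart muscle 9 of 31 genes rose (29%) and 13 fell (41.9%). The contractile genes tnnc1b (1.12 ± 0.12) and cmlc1 (0.66 ± 0.10) rose, and the cardiac transcription factors gata4 (-1.72 ± 0.28), tbx20, tbx5a and gata6 were among those that fell. Both kinds of gene moved in both directions, since the contractile genes myh6, myh7 and myl4 fell and the cardiac factors nkx2.7 and hand2 rose.

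Pigment genes moved in both directions. In melanophores 11 of 18 genes rose and 2 fell, with a median of 0.42. The pigment enzymes and transporters slc45a2 (0.68 ± 0.09), tyrp1b (0.65 ± 0.11) and dct (0.65 ± 0.13) rose. tyr, the rate-limiting enzyme of melanin synthesis, fell from 55.7, 53.1 and 57.7 CPM to 31.9, 34.7 and 27.4 CPM (-0.82 ± 0.15, edgeR adjusted p = 6.63e-05), and the other gene that fell was kita, a receptor of migrating melanoblasts. crestin, a transcript of neural crest, fell from 9.8, 4.71 and 7.86 CPM to 2.89, 2.07 and 1.35 CPM (-1.81 ± 0.25, edgeR adjusted p = 2.29e-06). pax7a and pax7b, which mark xanthophore precursors, fell by 0.80 and 0.70, while gch2, an enzyme of their pteridine pigments, rose. In the xanthophore and iridophore list 10 of 28 genes rose (35.7%) and 6 fell (21.4%), the latter near the share over all genes.

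In blood and immune cells, lyz, the lysozyme of neutrophils and macrophages, rose from 3.91, 5.6 and 4.1 CPM to 10.3, 11.6 and 18.3 CPM (1.55 ± 0.18, edgeR adjusted p = 1.43e-07). Of 37 genes of macrophages and neutrophils 13 rose (35.1%) and 1 fell (2.7%), against 24.5% and 23.2% of all genes. The counts were 9 and 0 without Meevs replicate 3, and 8 rose without wild type replicate 3. The neutrophil genes npsn (0.98 ± 0.13) and mpx (0.62 ± 0.13) were among the 13 that rose. Globin genes such as hbae1.3 (0.68 ± 0.11) rose, while tfr1a, through which red cells take up iron, fell from 47.8, 39.6 and 34.1 CPM to 22.5, 14 and 9.73 CPM (-1.38 ± 0.21, edgeR adjusted p = 7.67e-06), and so did slc25a37, the mitochondrial iron importer (-1.52 ± 0.25). In globins and heme synthesis 15 of 36 genes rose (41.7%) and 5 fell (13.9%), with 9 higher without Meevs replicate 3. The summed level of that list overlapped, at 3437, 4065 and 3281 CPM in wild type and 5198, 4055 and 5547 CPM in Meevs. apoea, an apolipoprotein of yolk layer and macrophages, was at 55.5, 63.3 and 53.7 CPM against 129, 127 and 150 CPM (1.23 ± 0.11, edgeR adjusted p = 4.22e-09). thy1, a cell surface glycoprotein, had the largest rise among the named genes, from 13.6, 7.96 and 8.69 CPM to 34.2, 41.5 and 39.6 CPM (1.92 ± 0.16, edgeR adjusted p = 2.01e-09).

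Stress and damage lists held members in both directions in these unexposed embryos. Of 27 p53 targets 9 rose (33.3%) and 5 fell (18.5%), against 24.5% and 23.2% of all genes, with 3 fallen without Meevs replicate 2. Their median was 0.11, with phlda3 (0.70 ± 0.12) among those that rose, whereas mdm2 (0.04 ± 0.09) and cdkn1a (-0.10 ± 0.19) did not pass. In nucleotide excision repair, which removes UV photoproducts, 14 of 31 genes rose (45.2%) and 5 fell (16.1%), and 9 rose without wild type replicate 2, as without wild type replicate 3. Photolyases and light-induced repair genes gave 2 higher, cry3b (0.39 ± 0.08) and cpdp (0.38 ± 0.09), and 1 lower of 10. In the heat shock list 12 of 34 rose and 2 fell. The mitochondrial chaperonin hspe1 (0.83 ± 0.08) and hsp90aa1.2, an Hsp90 (0.80 ± 0.11), were among the risen genes. The heat-inducible hsp70l (1.13 ± 0.51) and hsp70.1 (0.98 ± 0.48) did not pass. Interferon-stimulated genes gave 2 higher and 2 lower of 23, and antigen presentation 3 and 3 of 22. In inflammation and NF-kB signalling 15 of 43 rose and 6 fell, with nfkbiab at 0.58 ± 0.07 and tnfaip3 at -1.22 ± 0.20, both feedback inhibitors of NF-kB.

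**Figure D3:**
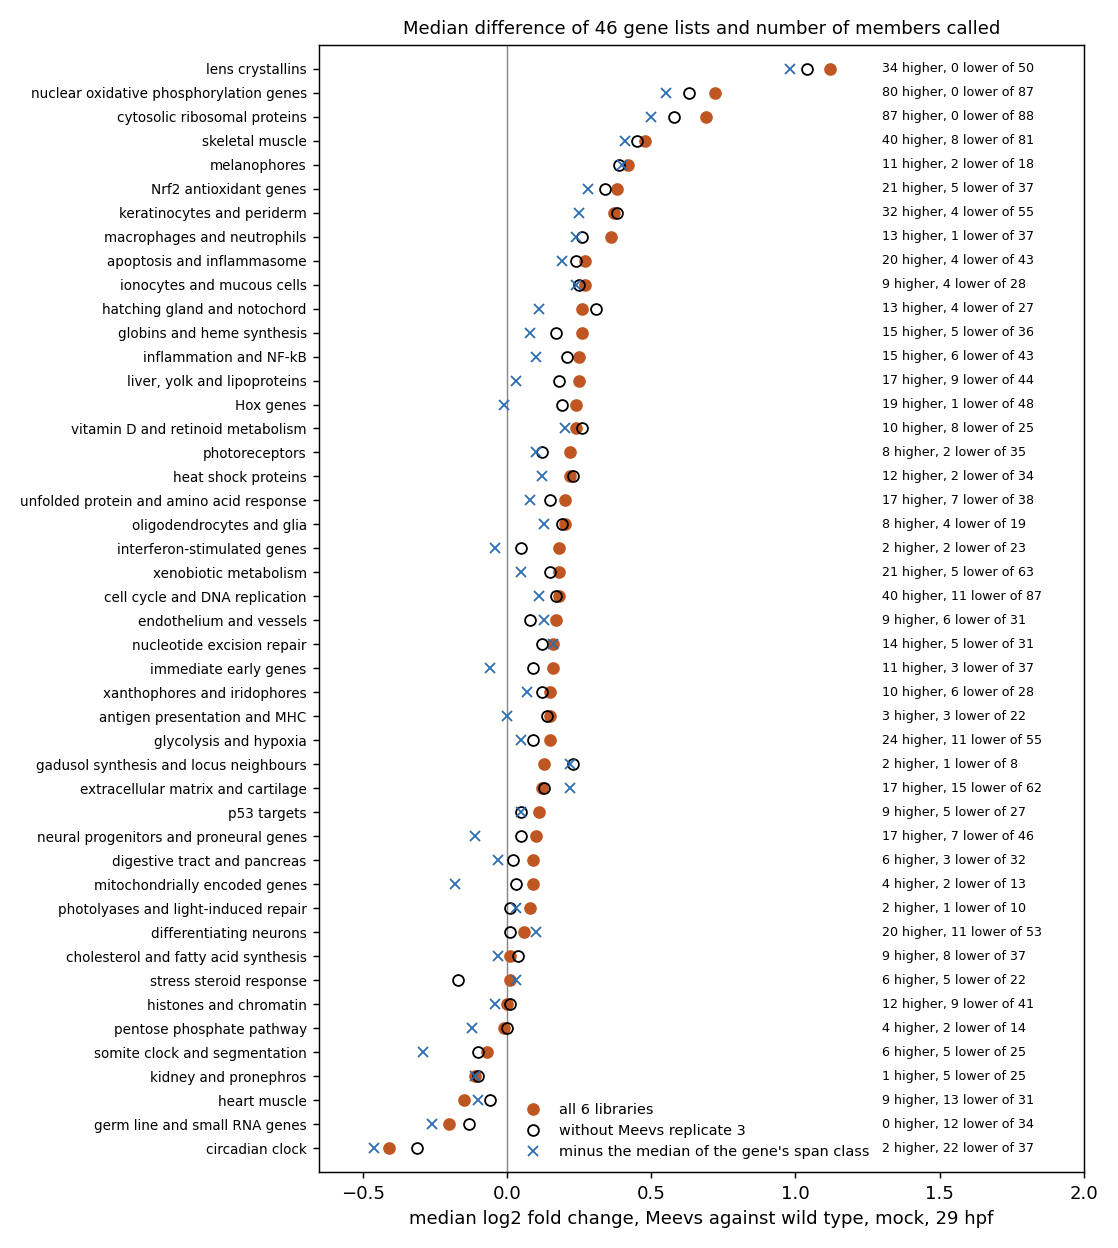
Median log2 fold change of Meevs against wild type in mock embryos at 29 hpf for each of 46 gene lists (horizontal axis), with all 6 libraries as filled circles, without Meevs replicate 3 as open circles and with the median of each gene's span class taken off as crosses; the text at the right gives the members called. Lens crystallins lie at 1.12 and the circadian clock at -0.41, and 39 of the 46 medians are above 0, or 31 with the span class median taken off.

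Long and short genes differed in opposite directions across the whole table. Genes that span up to 3 kb had a median log2 difference of 0.27, those of 3 to 10 kb 0.22, and those of 10 to 30 kb 0.06. The median was -0.20 for 30 to 100 kb, -0.37 for 100 to 200 kb and -0.39 beyond 200 kb, where 232 of 472 genes fell and 21 rose. Meevs replicate 3 lay further along in the same order, with 0.37 in the shortest class against 0.20 and 0.21 in replicates 1 and 2. Without it the medians ran from 0.21 to -0.36. Genes of 30 to 100 kb held 19.1%, 18% and 18.9% of the counts in wild type and 15.3%, 15.8% and 13.9% in Meevs, and the groups did not overlap. In the other 3 conditions the shortest class stood at 0.30 to 0.33 and the longest at -0.47 to -0.93. The labels give no RNA integrity values, and the part of library making or RNA quality in this order was not tested.

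**Figure D4:**
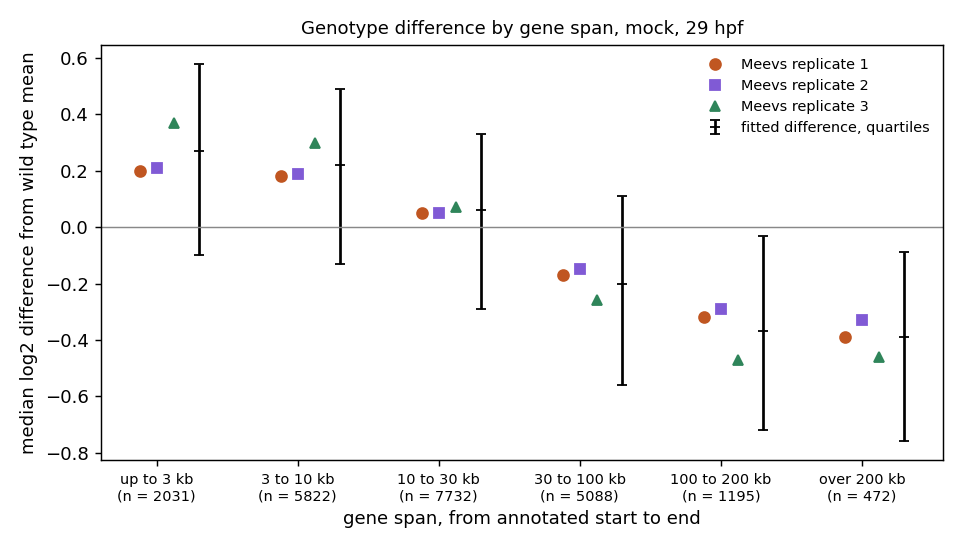
Median log2 difference from the wild type mean (vertical axis) of genes in 6 classes of span (horizontal axis), for each Meevs mock library at 29 hpf as a coloured symbol and for the fitted difference of the groups as a black mark with quartiles over genes. Medians run from 0.27 in genes up to 3 kb to -0.39 beyond 200 kb, and Meevs replicate 3 has the widest run of the 3 libraries.

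Several lists consist of short or of long genes, so their values were also set against other genes of the same span. Of 64 ribosomal protein genes of 3 to 10 kb 64 rose, against 35.1% of the other 5758 genes of that span, and their medians were 0.70 and 0.21. For oxidative phosphorylation genes of that span 51 of 54 rose with a median of 0.77. Lens genes up to 3 kb rose in 17 of 22 cases with a median of 1.53, against 29.9% and 0.26 in other genes of that span. With the median of each gene's own span class taken off, list medians were 0.50 for ribosomal proteins, 0.55 for oxidative phosphorylation, 0.98 for lens, 0.41 for skeletal muscle, -0.46 for the clock and -0.26 for germ line and small RNA genes. Medians of Hox genes fell to -0.01 from 0.24, those of liver, yolk and lipoproteins to 0.03 from 0.25, and those of interferon-stimulated genes to -0.04 from 0.18. For neural progenitors and proneural genes the median fell to -0.11 from 0.10, and for immediate early genes to -0.06 from 0.16. ago1 spans 67.5 kb and stood at -2.58 against the median of its class. vdra spans 2.7 kb and myod1 2.24 kb, and they stood at -2.03 and -1.69 against the medians of theirs.

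Some of the largest single-gene values belong to a symbol with 2 gene identifiers. Of 272 symbols with 2 tested identifiers, both were called in 58, in opposite directions in 15 and in the same direction in 43. actc1a, a muscle actin, had the lowest value of the named genes: the identifier on chromosome 19 was at 29.4, 15 and 50.9 CPM in wild type and at 1.77, 1.56 and 2.21 CPM in Meevs (-4.11 ± 0.94, edgeR adjusted p = 0.000777). The other identifier named actc1a was at 869, 914 and 868 CPM against 1243, 1237 and 1482 CPM (0.58 ± 0.14), and their sum was 898, 929 and 919 CPM against 1245, 1239 and 1484 CPM. The summed level thus stood higher in Meevs, opposite to the first copy. For tomm20a, a receptor of mitochondrial protein import, one copy fell by 2.09 and the other rose by 0.71, and the sum was 47.4, 46.1 and 48.8 CPM in wild type and 66.2, 65.9 and 68.6 CPM in Meevs. One copy of ybey rose by 1.68, while the other did not pass (-0.39). For the receptor phosphatase ptprsa both copies fell, by 2.04 and 0.33. The sources used here do not give how reads were shared between such copies.

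The genotype difference in mock embryos at 29 hpf was also read in the other 18 libraries. None of them enters its fold changes, but they enter the common spread behind its calls and share the division by library series. Of the 10665 genes called at 29 hpf, 8886 (83.3%) were called in the same direction in mock embryos at 48 hpf, where 52.7% of all genes were called (26.5% higher and 26.2% lower), and 12 in the opposite one. These shared calls were 75.5% of the calls at 48 hpf. In UVB embryos the same direction was called for 72.9% at 29 hpf and 78.8% at 48 hpf, where 50.3% and 55.8% of all genes were called. Those were 69.2% and 67.4% of the calls made there, and 6286 genes (58.9%) were called the same way in all 4 conditions. In the mean of the other 3 conditions, where 36.5% of all genes were called higher and 33.7% lower, the direction was the same for 92.3%. Across genes, the log2 differences in mock embryos at 29 hpf and in the mean of the other 3 conditions had a Spearman rho of 0.805 over 22340 genes, which are not independent and share the library series. The log2 difference of ago1 was -2.64, -1.89 and -2.24 in mock 48 hpf, UVB 29 hpf and UVB 48 hpf, and that of thy1 was 1.74, 2.07 and 1.75.

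**Figure D5:**
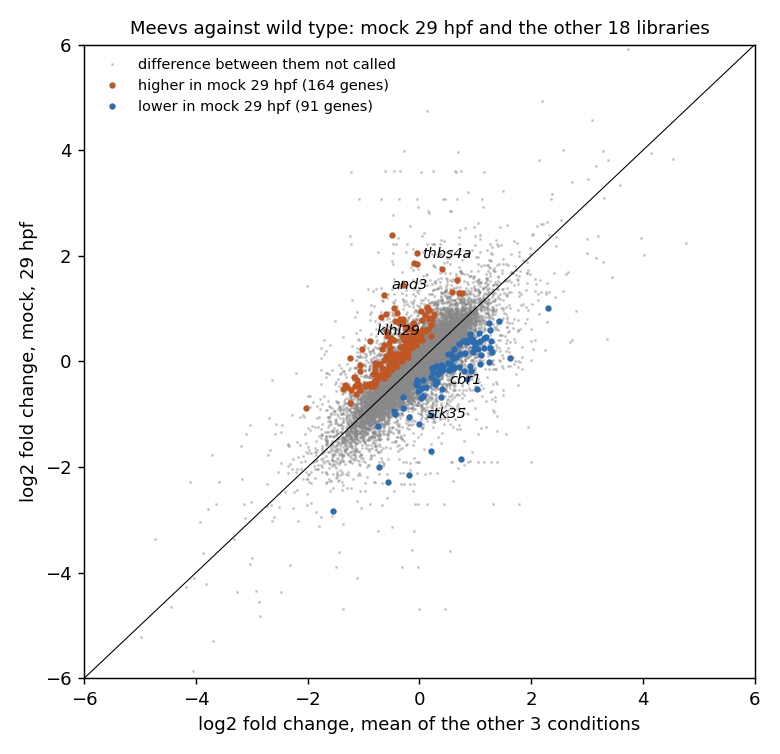
Log2 fold change of Meevs against wild type in mock embryos at 29 hpf (vertical axis) against the mean log2 fold change in the other 3 conditions (horizontal axis), a point for each tested gene, with the line of equal values. Genes whose values differ at an edgeR adjusted p under 0.05 are in orange (164, higher at 29 hpf in mock) and blue (91, lower); 11 genes lie beyond the axes.

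Only a small set of genes departed from that common difference. The difference between mock embryos at 29 hpf and the mean of the other 3 conditions was called for 255 genes (1.14%), 164 higher (0.734%) and 91 lower (0.407%). Against mock embryos at 48 hpf alone it was called for 2 genes (0.00895%), thbs4a and si:dkey-65b12.6, both higher at 29 hpf, and for 0 lower; at an unadjusted p under 0.05 there were 920 higher and 693 lower genes, and DESeq2 called 21 and 15. thbs4a, a thrombospondin of the extracellular matrix, was read at 1.79, 2.49 and 3.01 CPM in wild type and at 8.8, 9.93 and 7.53 CPM in Meevs at 29 hpf (1.86 ± 0.18, edgeR adjusted p = 1.02e-08). Its log2 differences in mock 48 hpf, UVB 29 hpf and UVB 48 hpf were 0.30, 1.17 and -1.75.

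The 3 actinodins, structural proteins of the larval fin fold, were among these genes. and1 was at 82.4, 95.7 and 92.2 CPM in wild type and at 155, 173 and 145 CPM in Meevs (0.81 ± 0.12, edgeR adjusted p = 5.02e-06), and2 at 49.8, 70.5 and 56.7 CPM against 114, 116 and 103 CPM (0.91 ± 0.14), and and3 at 8.84, 15 and 10.4 CPM against 21.1, 30.1 and 30.8 CPM (1.26 ± 0.17). In each the groups did not overlap, which was a condition for naming the largest departures and held for 53% of all genes. In mock embryos at 48 hpf the differences were 0.17, 0.35 and 0.48, after UVB at 29 hpf they were 0.09, -0.09 and -0.11, and after UVB at 48 hpf they were -1.13, -1.49 and -2.26. Of 62 genes of extracellular matrix and cartilage 11 were higher in the difference from the mean of the other 3 conditions and 0 lower, against 0.734% of all genes. That mean includes the UVB embryos of both stages, and against mock 48 hpf alone 0 of the 62 were called. The list's median log2 difference was 0.12 in mock 29 hpf. It was -0.10 in mock 48 hpf, -0.19 in UVB 29 hpf and -0.50 in UVB 48 hpf. In mock embryos at 29 hpf alone that list held 17 genes called higher (27.4%) and 15 lower (24.2%), near the shares over all genes. The fallen ones were led by sp7, a factor of bone cells (-1.42 ± 0.16), and col14a1a (-1.03 ± 0.09). duox, which makes hydrogen peroxide at epithelia, rose from 14.8, 14.4 and 17.3 CPM to 30.5, 30.2 and 23.1 CPM (0.85 ± 0.21, edgeR adjusted p = 0.00126) and stood at -0.37, 0.09 and -1.78 in the other conditions.

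Other genes had a lower value in mock embryos at 29 hpf than in the mean of the other 3 conditions, and 0 were called lower against mock 48 hpf alone. ddit4, an inhibitor of growth signalling, fell from 32.1, 28 and 23.5 CPM to 15.8, 11.4 and 12.9 CPM (-1.06 ± 0.18, edgeR adjusted p = 2.35e-05) and differed by -1.0 in mock 48 hpf, -0.38 in UVB 29 hpf and 0.82 in UVB 48 hpf. cbr1, a carbonyl reductase, was at 9.89, 9.02 and 8.54 CPM in wild type and at 6.51, 6.39 and 6.07 CPM in Meevs (-0.53 ± 0.12), and stood higher in Meevs in the other 3 conditions by 0.50, 0.44 and 0.25. The p53 targets gadd45aa (0.45 ± 0.15), pmaip1 (0.47 ± 0.14) and rps27l (0.73 ± 0.11) rose in mock embryos at 29 hpf, but after UVB at 29 hpf their differences were 1.79, 1.12 and 1.46. junbb, fosl2 and stk35 stood at -0.70, -0.72 and -1.18 relative to the mean of the other 3 conditions. These counts depend on the libraries at hand: without wild type replicate 3 of mock 29 hpf they were 69 and 41, and without Meevs replicate 2 of that group 78 and 31. Higher genes numbered 254 without Meevs replicate 2 of UVB 48 hpf, and DESeq2 called 261 and 160.

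One gene was read in all wild type and absent from all Meevs mock libraries at 29 hpf. It carries the placeholder symbol si:dkey-13n23.3 (chromosome 3, 30500968 to 30504419) and stood at 1.06, 1.33 and 1.92 CPM in wild type. With 3 counts per library as the limit that 0 counts allow, which covers counting error only, it was at least 10.3-fold lower in Meevs. It was not absent throughout, since the other 9 Meevs libraries held 3 counts of it. No gene was absent from wild type and above 1 CPM in all Meevs libraries.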

How the data were processed

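Whole-number read counts per gene, which the authors deposited unnormalized, were taken for 24 libraries, each column being matched to a library through its label. The submitters' processing notes name cutadapt 1.16, STAR 2.7.9a, featureCounts 1.6.3, DESeq2 1.36.0 and the build GRCz11. A directional polyA kit and Trizol extraction are given per the labels' protocols. No source used here says whether counting used the strand, so overlapping genes on opposite strands are uncertain. Symbols and coordinates come from the deposited annotation, in which 717 genes share a symbol and 69 have none.

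The counts were TMM-scaled, filtered with filterByExpr and fitted in edgeR 4.0.16 (R 4.3.3), with a mean for each of the 8 groups and a common estimate of the spread. The quasi-likelihood F-test was used, with Benjamini-Hochberg adjustment across all genes tested, and a gene was called at an adjusted p under 0.05. Values after ± are SE, and CPM use TMM-scaled totals. A span runs from a gene's annotated start to its end. For this comparison the authors' deposited table holds log2 fold changes and adjusted p-values. At an adjusted p under 0.05 the authors' deposited table has 5342 genes higher and 5278 lower, and 97.6% of the calls reported here have the same direction there. The edgeR fit was run on simulated counts in which few genes changed and all genes had the same spread. That run does not show how scaling or error rates behave where 47.7% of genes are called, as here.

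Named genes were called, had a mean of at least 1 log2 CPM in the 6 libraries, did not overlap between genotypes and had no placeholder symbol: the 15 highest and 15 lowest, and the 10 highest and lowest differences from the other conditions. Up to 4 called genes per list were added by adjusted p, with genes absent from one genotype and the gadusol genes. Further members were named after their values were seen. Members and lists (46, with 1689 tested genes) were chosen with earlier results of these data known. Alternatives were DESeq2 size factors, DESeq2 1.42.0, no filter, only the libraries compared, the replicate number as a block, glmTreat and leaving out each library. Replicates differed beyond sampling noise, with a chi-square per degree of freedom of 6.28 to 13.6. Some genes are not reported here.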

Additional observations from a re-analysis of the deposited data

Results flagged for a closer look

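Genes are given here because their genotype difference in mock embryos at 29 hpf differed from the mean difference in the other 3 conditions at an edgeR adjusted p under 0.05. Values are the difference between these differences on the log2 scale. Among matrix and fin fold genes it was 1.95 for thbs4a, 1.89 for and3, 1.32 for and2, 1.1 for and1, 1.09 for adamtsl7 and 0.99 for col28a1a. In skin it was 1.54 for duox, 0.95 for col17a1a and 0.73 for krtt1c19e, in neutrophils 0.86 for mpx and 0.82 for npsn, and in photoreceptors 1.89 for opn1lw2 and 1.07 for rdh8b. It was 1.28 for klhl29, 0.87 for ecrg4a, and 0.37 and 0.35 for mt-nd4l and mt-nd5, which were lower in Meevs in all 4 conditions. opn1lw2 was read at 0.0752 to 1.1 CPM in these 6 libraries. In this difference 4 of 55 genes of keratinocytes and periderm were called higher and 0 lower. The counts were 2 and 1 of 37 for macrophages and neutrophils, and 1 and 0 of 35 for photoreceptors. Over all genes the shares were 0.734% and 0.407%. Against mock 48 hpf alone 0 genes of these lists were called.

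On the lower side the value was -1.18 for stk35, -0.93 for cbr1, -0.87 for ddit4, -0.68 for higd1a, -0.69 for plekhn1, -0.70 for icam3 and -0.32 for tefa. It was -0.72 for pmaip1, -0.71 for gadd45aa and -0.53 for rps27l, which are p53 targets, and -0.72 for fosl2 and -0.70 for junbb, which are AP-1 factors. The p53 targets and junbb were higher in Meevs in all 4 conditions.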

How the results depend on the processing

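For the mock difference at 29 hpf, leaving out single libraries gave 4424 to 5220 genes called higher and 4230 to 4986 lower, DESeq2 gave 5342 and 5278, and the fit of only the 6 libraries gave 4400 and 4622; glmTreat beyond 1.5-fold gave 322 and 908. For mock embryos at 48 hpf the leave-one-out counts were 5061 to 5615 higher and 5110 to 5530 lower, and for the mean of the other 3 conditions 7606 to 8111 and 7282 to 7778. The difference between mock 29 hpf and that mean was the least stable count: 69 to 254 higher and 31 to 111 lower when 1 library was left out, 261 and 160 in DESeq2, and 2 and 0 against mock 48 hpf alone, a contrast with fewer libraries. Higher calls were 97 without wild type mock 29 hpf replicate 2, 69 without replicate 3, 78 without Meevs mock 29 hpf replicate 2 and 254 without Meevs UVB 48 hpf replicate 2. Lower calls were 58, 50 and 41 without wild type mock 29 hpf replicates 1, 2 and 3 and 31 without Meevs mock 29 hpf replicate 2. The cause was not tested. With the replicate number as a block the counts were 5392 and 5115. Each library's deviations from its group mean were correlated across genes between the genotypes. For same-numbered libraries these correlations were 0.136, -0.0414 and -0.0211. Meevs replicate 1 correlated best with its own number, and Meevs replicates 2 and 3 did not. With 3 libraries per group this does not settle whether the numbers pair the libraries. Of 220 called named genes 206 kept their call under all settings but glmTreat, and 137 lost it there. eevs ran from -0.37 to 0.29 when 1 library was left out, with 0.12 without wild type replicate 1, 0.29 without Meevs replicate 3 and -0.37 without Meevs replicate 1, and was called in none of these fits. glmTreat and the contrast with mock 48 hpf alone were chosen after seeing the data. In these 6 libraries 1 CPM stood for 19.9 to 31.2 counts, which limits the precision of genes near that level.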

Other observations

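Shares over all genes were 24.5% called higher and 23.2% lower, and 40 of the 46 lists held more members higher than lower. Of 87 genes of the cell cycle and DNA replication 40 rose (46%) and 11 fell (12.6%). aurkb, a mitotic kinase, was read at 92.8, 101 and 91.4 CPM in wild type and at 156, 147 and 176 CPM in Meevs (0.75 ± 0.08, edgeR adjusted p = 4.1e-08), and rfc4, a loader of the replication clamp, rose by 0.72. cdk6, a kinase of the G1 phase, fell from 14.3, 11.5 and 13.8 CPM to 5.13, 5.24 and 4.42 CPM (-1.42 ± 0.15, edgeR adjusted p = 3.16e-08). Of 48 Hox genes, which set position along the body axis, 19 rose and 1 fell, with hoxd10a and hoxa9b both at 0.63. The Hox median of 0.24 was -0.01 with the median of each gene's span class taken off. In apoptosis and inflammasome 20 of 43 rose and 4 fell, among them baxb, a Bax relative (1.08 ± 0.17), and mcl1a, a survival factor (0.62 ± 0.07).

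In metabolism 24 of 55 genes of glycolysis and hypoxia rose (43.6%) and 11 fell (20%), against 24.5% and 23.2% of all genes. gapdhs, a glyceraldehyde phosphate dehydrogenase, was at 71.9, 94.8 and 86.6 CPM against 143, 142 and 183 CPM (0.89 ± 0.09), while the glucose transporter slc2a1a fell (-0.94 ± 0.12). The unfolded protein and amino acid response had 17 of 38 higher (44.7%) and 7 lower (18.4%). Its transcription factor atf4b rose (0.61 ± 0.06). Immediate early genes had 11 of 37 higher, or 5 without Meevs replicate 3, and 3 lower, with the AP-1 factor jund at -1.37 ± 0.14. Cholesterol and fatty acid synthesis had 9 and 8 of 37, both near the shares over all genes. The same held for stress steroid response, with 6 and 5 of 22 (27.3% and 22.7%). Xenobiotic metabolism had 21 and 5 of 63 (33.3% and 7.94%). Without Meevs replicate 3 stress steroid response had 3 and 6, with a median of -0.17 in place of 0.01, and xenobiotic metabolism 13 and 5. Without wild type replicate 3 xenobiotic metabolism also had 13 higher.

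Among tissues, kidney and pronephros had 1 of 25 higher (4%) and 5 lower (20%), against 24.5% and 23.2% of all genes. The fallen share of this list was thus near that over all genes. Its fallen genes included the endocytic receptor lrp2a (-0.63 ± 0.09) and the transcription factor mecom (-0.90 ± 0.11). Hatching gland and notochord had 13 and 4 of 27, liver, yolk and lipoproteins 17 and 9 of 44, and globins and heme synthesis 15 and 5 of 36. The last 2 lists had 11 and 9 genes higher without Meevs replicate 3. The liver list also had 11 without wild type replicate 3, and the globin list had 8 lower without Meevs replicate 1. Endothelium and vessels had 9 and 6 of 31 (29% and 19.4%), and somite clock and segmentation 6 and 5 of 25 (24% and 20%). Both lists were near the shares over all genes. Ionocytes and mucous cells had 9 and 4 of 28, and oligodendrocytes and glia 8 and 4 of 19. Photoreceptors had 8 and 2 of 35, and digestive tract and pancreas 6 and 3 of 32. Photoreceptors had 5 and 2 and digestive tract and pancreas 3 and 3 without Meevs replicate 3, and photoreceptors had 5 higher without wild type replicate 3 as well. By level, 56.3% of genes above 8 log2 CPM were called higher and 14.1% lower.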
